A study of Mus musculus with 3 samples.

Results

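The VEGF and PDGF ligands and the PDGF receptors were described in the line KPC78, cultured mouse cells of a pancreatic ductal adenocarcinoma, labelled WT in genotype. They comprised 10 genes, chosen by symbol from the 35764 gene symbols measured, namely Vegfa, Vegfb, Vegfc, Vegfd, Pdgfa, Pdgfb, Pdgfc, Pdgfd, Pdgfra and Pdgfrb, and all 10 were found. Poly(A) RNA was sequenced from 3 libraries, replicates 1 to 3 of 1 group, with no treated or control group, so genes were compared with each other inside each library. The labels name 1 cell line only, and give neither its alleles nor the mouse it came from. The series calls the replicates biological without describing separate cultures, so the spread between them may be partly technical.

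VEGF and PDGF ligands are secreted dimers of a shared cystine-knot fold. VEGF-A, VEGF-B and placental growth factor bind FLT1, VEGF-A also signals through KDR, and VEGF-C and VEGF-D act through FLT4 on lymphatic endothelium, with neuropilins as co-receptors. PDGF chains signal through the receptor tyrosine kinases PDGFRA and PDGFRB, which in the pancreas are known mainly from fibroblasts, stellate cells and pericytes. Tumour cells are a known source of both ligand families for the surrounding stroma.

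Values are TPM, the share of a library's transcripts that a gene contributes after correction for its length, which makes levels of different genes comparable. Detection meant a value of 1 TPM or more in all 3 libraries. Of the 10 genes 9 were detected, against 32.6% of all symbols and 55.4% of the protein-coding ones. Pdgfra was below the minimum in all 3 libraries. The closest gene above it was Vegfd, whose lowest value was 1.01 TPM in replicate 2. The median level of the 10 genes was 14.9 TPM, beside 0.034 TPM over all symbols and 22.9 TPM over the detected symbols. The libraries summed to between 999728 and 999776 TPM. The read depth behind them is unknown, so precision is given by the SD over replicates.

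**Figure D1:**
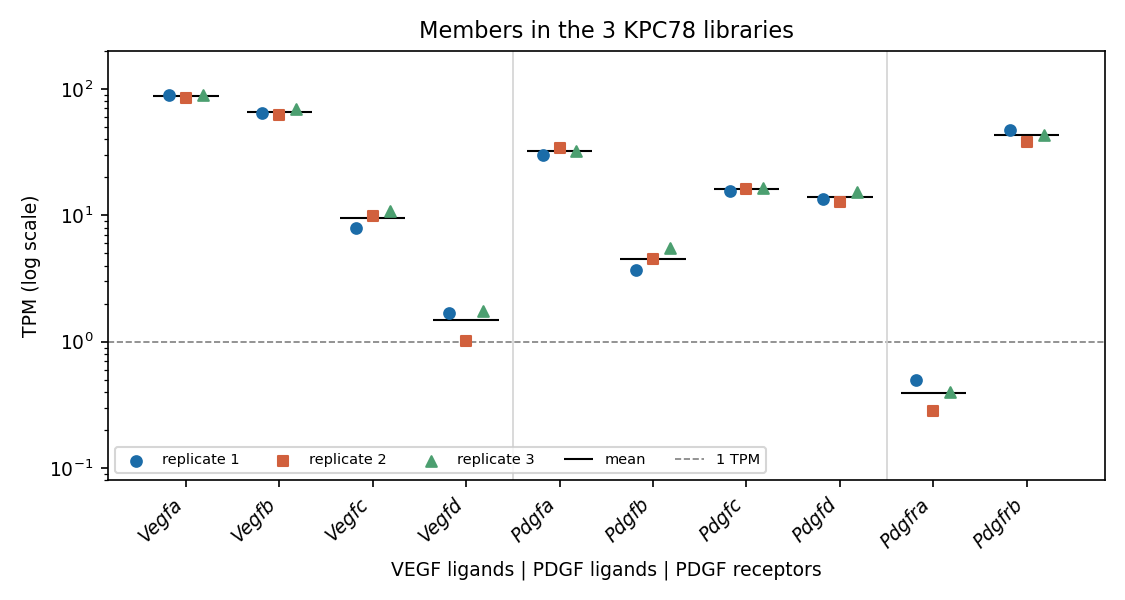
TPM of the 10 genes on a log axis in replicates 1, 2 and 3 (points) with the mean (bar) and the detection minimum of 1 TPM (dashed). Vegfa and Vegfb lead with means of 88.0 and 65.2 TPM, and Pdgfra is the only gene with all 3 values below the dashed line.

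Vegfa, the main inducer of blood vessel growth, was the most abundant of the 10 genes. It stood at 89.0, 85.3 and 89.6 TPM in replicates 1, 2 and 3, a mean of 88.0 ± 2.35 TPM (SD, n = 3). The coefficient of variation, 2.67%, was the smallest of the 10 genes, and 85.5% of the detected symbols had a lower mean. Vegfb, a ligand of FLT1 known for roles in heart and fat metabolism, followed with 63.8, 62.1 and 69.6 TPM (65.2 ± 3.91 TPM, SD, n = 3). Vegfa exceeded Vegfb in 3 of 3 libraries, 1.35 ± 0.056-fold (SD, n = 3). As log2(TPM + 1) the difference was 0.43 (SE 0.063, adjusted p = 8.93e-05, limma).

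The lymphatic ligands were lower. Vegfc stood at 7.96, 9.85 and 10.8 TPM (9.54 ± 1.45 TPM, SD, n = 3), lowest in replicate 1. Vegfd, whose symbol in older annotation is Figf, stood at 1.70, 1.01 and 1.76 TPM (1.49 ± 0.42 TPM, SD, n = 3), lowest in replicate 2. Vegfa and Vegfb did not overlap with either of them in any library. Vegfa was 9.38 ± 1.58-fold above Vegfc, and Vegfc was 6.87 ± 2.61-fold above Vegfd (SD, n = 3). In the summed TPM of the 4 VEGF ligand genes, 53.6% ± 1.32 came from Vegfa, 39.7% ± 0.72 from Vegfb, 5.81% ± 0.79 from Vegfc and 0.90% ± 0.23 from Vegfd (SD, n = 3).

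The 250 bases before the RefSeq start of the first 3 VEGF ligand genes are shown because they differ in the density of CG dinucleotides, in capitals, the base pair step that is concentrated in the promoters of widely expressed genes. They are written 5′ to 3′ on the gene's strand in GRCm38.p6. The Vegfa window is chr17:46032378-46032627 (minus strand), the Vegfb window chr19:6987652-6987901 (minus strand) and the Vegfc window chr8:54077282-54077531 (plus strand).
Vegfa: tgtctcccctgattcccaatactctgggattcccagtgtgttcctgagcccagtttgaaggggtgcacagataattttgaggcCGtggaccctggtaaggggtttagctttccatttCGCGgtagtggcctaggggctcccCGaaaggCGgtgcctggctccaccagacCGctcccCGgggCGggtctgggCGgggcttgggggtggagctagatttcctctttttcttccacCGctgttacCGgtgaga
Vegfb: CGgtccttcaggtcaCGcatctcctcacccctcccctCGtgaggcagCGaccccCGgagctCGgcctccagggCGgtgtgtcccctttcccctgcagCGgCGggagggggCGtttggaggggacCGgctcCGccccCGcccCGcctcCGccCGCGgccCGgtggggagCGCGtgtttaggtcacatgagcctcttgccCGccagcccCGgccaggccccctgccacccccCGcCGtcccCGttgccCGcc
Vegfc: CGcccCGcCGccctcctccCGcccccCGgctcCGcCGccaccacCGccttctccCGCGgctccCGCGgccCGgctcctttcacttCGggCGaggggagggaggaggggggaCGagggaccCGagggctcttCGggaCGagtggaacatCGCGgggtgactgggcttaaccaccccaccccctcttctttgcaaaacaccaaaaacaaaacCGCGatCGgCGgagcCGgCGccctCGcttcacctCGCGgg
Vegfa held 11 CG dinucleotides in this window, Vegfb 26 and Vegfc 30. The median was 16 over 8887 promoters of detected genes and 4 over 7093 promoters of genes not detected. Vegfc had the most CG dinucleotides of the 3 and the lowest level. Vegfd held 2 in its window, of which 144 bases are exon in GENCODE M21, and its sequence is therefore not shown.

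Pdgfa, the ligand of PDGFRA and in heterodimers of PDGFRB, was the most abundant PDGF chain. It stood at 30.0, 34.2 and 32.1 TPM in replicates 1, 2 and 3 (32.1 ± 2.10 TPM, SD, n = 3). It was the only one of the 9 detected genes that was highest in replicate 2, as were 15.9% of all detected symbols. Pdgfb, which binds both receptors and recruits pericytes to vessels, was the lowest chain with 3.66, 4.48 and 5.47 TPM (4.54 ± 0.91 TPM, SD, n = 3). The values of these genes did not overlap, and Pdgfa was 7.24 ± 1.22-fold above Pdgfb (SD, n = 3).

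Pdgfc and Pdgfd encode latent ligands whose CUB domains must be removed by proteases before they bind a receptor. Pdgfc stood at 15.5, 16.0 and 16.5 TPM (16.0 ± 0.51 TPM, SD, n = 3). Pdgfd stood at 13.4, 12.8 and 15.4 TPM (13.9 ± 1.32 TPM, SD, n = 3). The lowest Pdgfc value, 15.5 TPM, lay next to the highest Pdgfd value, 15.4 TPM. Pdgfc was the higher of the pair in 3 of 3 libraries, 1.16 ± 0.087-fold (SD, n = 3). The difference of 0.20 in log2(TPM + 1), with a 95% interval of -0.02 to 0.41, did not pass (adjusted p = 0.088, limma). In the summed PDGF ligand TPM, 48.3% ± 2.23 came from Pdgfa, 24.1% ± 0.57 from Pdgfc, 20.9% ± 1.65 from Pdgfd and 6.79% ± 1.03 from Pdgfb (SD, n = 3). The VEGF ligand sum was 2.47 ± 0.13 times the PDGF ligand sum, 164.2 ± 6.91 against 66.5 ± 3.51 TPM (SD, n = 3).

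**Figure D2:**
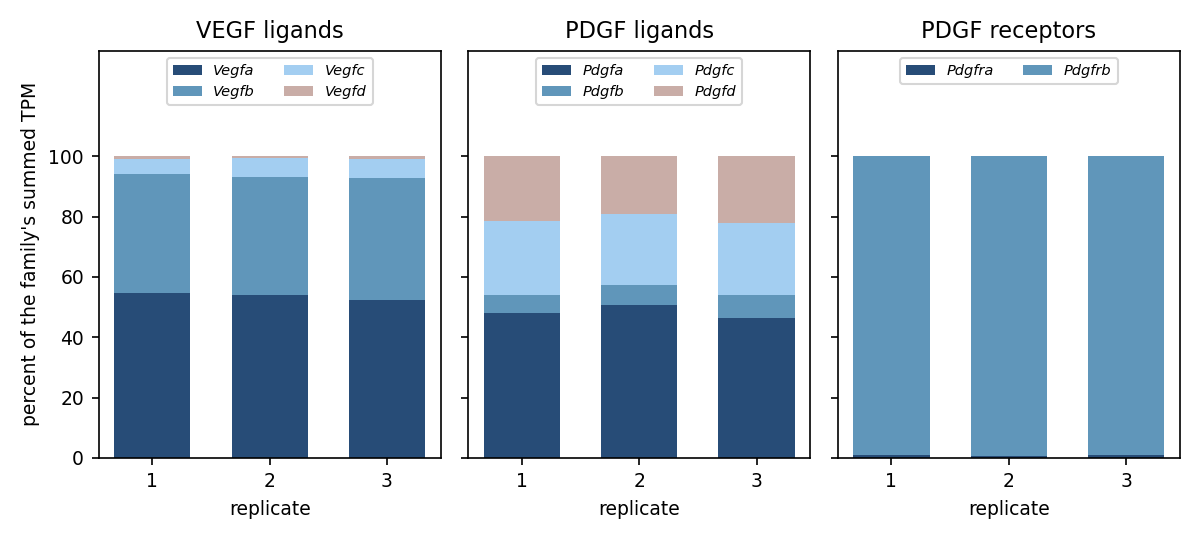
Share of each gene in the summed TPM of its family (percent, stacked bars) in replicates 1, 2 and 3 for VEGF ligands, PDGF ligands and PDGF receptors. Vegfa makes up 52.2% to 54.8% of the VEGF sum, Pdgfa 46.2% to 50.7% of the PDGF sum, and Pdgfrb 99.0% to 99.3% of the receptor sum.

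Before its RefSeq start Pdgfd has few CG dinucleotides and a TATA motif, the letters TATAAA, also in capitals. The window is chr9:6168236-6168485 (plus strand, GRCm38.p6).
Pdgfd: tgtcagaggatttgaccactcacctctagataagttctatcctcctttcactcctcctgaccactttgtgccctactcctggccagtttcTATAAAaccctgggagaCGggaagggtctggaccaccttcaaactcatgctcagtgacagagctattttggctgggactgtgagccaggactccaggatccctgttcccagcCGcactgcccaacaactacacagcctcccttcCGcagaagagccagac
Pdgfd held 3 CG dinucleotides and its TATAAA began 160 bases before the start. Searched on both strands, TATAAA was present in 6.14% of the promoters of detected genes and 16.2% of those of genes not detected. It was found in 2 of the 8 genes with a promoter sequence, Pdgfd and Vegfd, and in Vegfd it began 73 bases before the RefSeq start, in the stretch that GENCODE M21 annotates as exon of Vegfd itself. Pdgfc also held 3 CG dinucleotides and Pdgfra held 4. Pdgfa held 28, in a window with 232 bases annotated as exon. Pdgfc and Pdgfd, with 3 each, stood at higher levels than Vegfc with 30. A relation of CG content to level was not tested. GC boxes, the letters GGGCGG on either strand, were present in the windows of Vegfa, Vegfb, Vegfc and Pdgfa, and in 61.8% of the promoters of detected genes. The core of the hypoxia response element, ACGTG or GCGTG on either strand, was present in the windows of Vegfb and Pdgfa, the latter mostly exon. It was present in 58.8% of the promoters of detected genes. Sequence outside the 250 bases was not searched, so absence from a window, as for Vegfa, does not mean that the gene lacks the element. For Pdgfb and Pdgfrb no promoter sequence was used here.

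**Figure D3:**
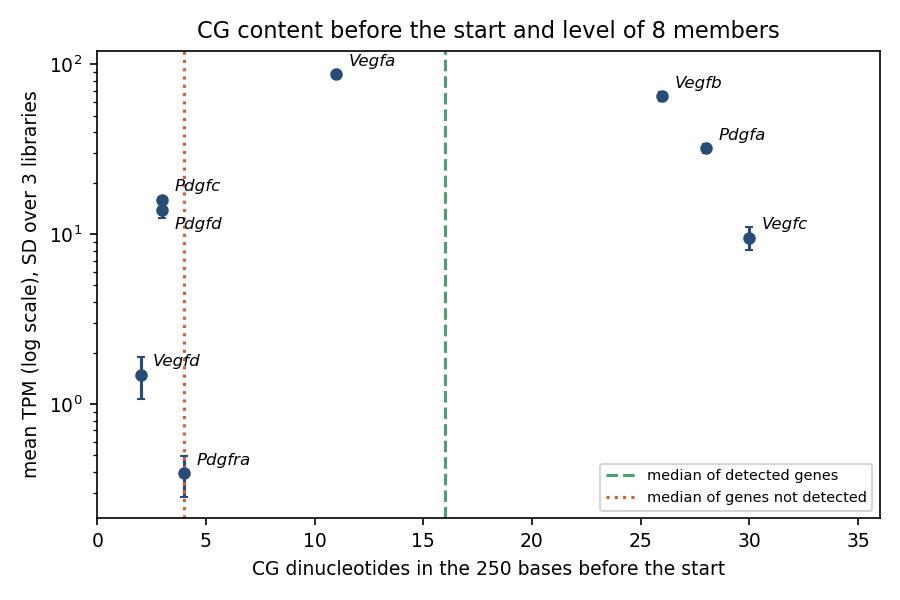
Mean TPM of 8 genes (log axis, SD over 3 libraries as bars) against the number of CG dinucleotides in the 250 bases before the RefSeq start, with the medians of detected genes (16, dashed) and of genes not detected (4, dotted). Vegfa, with 11, lies highest, and genes with 2 to 4 range from 0.39 to 16.0 TPM.

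Of the receptors, Pdgfrb was abundant and Pdgfra was not. Pdgfrb, the receptor of PDGF-BB and PDGF-DD, stood at 47.2, 38.1 and 43.2 TPM in replicates 1, 2 and 3 (42.8 ± 4.55 TPM, SD, n = 3). Pdgfra, which binds all chains but PDGF-D, stood at 0.49, 0.28 and 0.40 TPM (0.39 ± 0.11 TPM, SD, n = 3). The groups of values were far apart, and Pdgfrb made up 99.1% ± 0.15 of the receptor sum (SD, n = 3). Pdgfrb exceeded Pdgfra by 4.98 in log2(TPM + 1) (SE 0.070, adjusted p = 4.17e-19, limma). Only genes whose mean reached 1 TPM were set against Pdgfra, and 99.8% of those 12014 genes were called above it. Such a call is therefore no property of Pdgfrb. In RNA from a whole culture, few cells with much of a transcript and many cells with little of it cannot be told apart.

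Pdgfrb is a classical marker of pericytes and fibroblasts, so markers of these cells were read beside it, against the same background of 32.6% of all symbols and 55.4% of protein-coding symbols detected. Of 9 pericyte markers 2 were detected, Mcam with 11.0 ± 0.34 TPM and Anpep with 10.2 ± 0.95 TPM (SD, n = 3). The 7 not detected were led by Notch3 and Acta2, at means of 0.93 and 0.60 TPM. Abcc9, Cspg4, Rgs5, Kcnj8 and Des followed at means of 0.064, 0.063, 0.050, 0.0058 and 0.0038 TPM. The list summed to between 21.5 and 24.3 TPM over the libraries, most of it from Mcam and Anpep. None of 8 fibroblast markers was detected, and that list summed to between 1.55 and 1.85 TPM, with Col1a1 at a mean of 0.53 TPM and Dcn at 0.056 TPM. Lum was listed at 0 in replicates 2 and 3, and Fap in replicates 1 and 2. Of 6 ductal epithelial markers 4 were detected, a share near that of protein-coding symbols, among them Krt18 with 1472 ± 31.0 TPM and Krt19 with 904 ± 65.4 TPM (SD, n = 3), while Krt7 and Epcam, at 0.77 and 0.16 TPM, were not. Of 6 leukocyte and platelet markers 1 was detected, Cd68 with 2.43 ± 0.85 TPM (SD, n = 3), and the list summed to between 2.76 and 4.03 TPM.

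**Figure D4:**
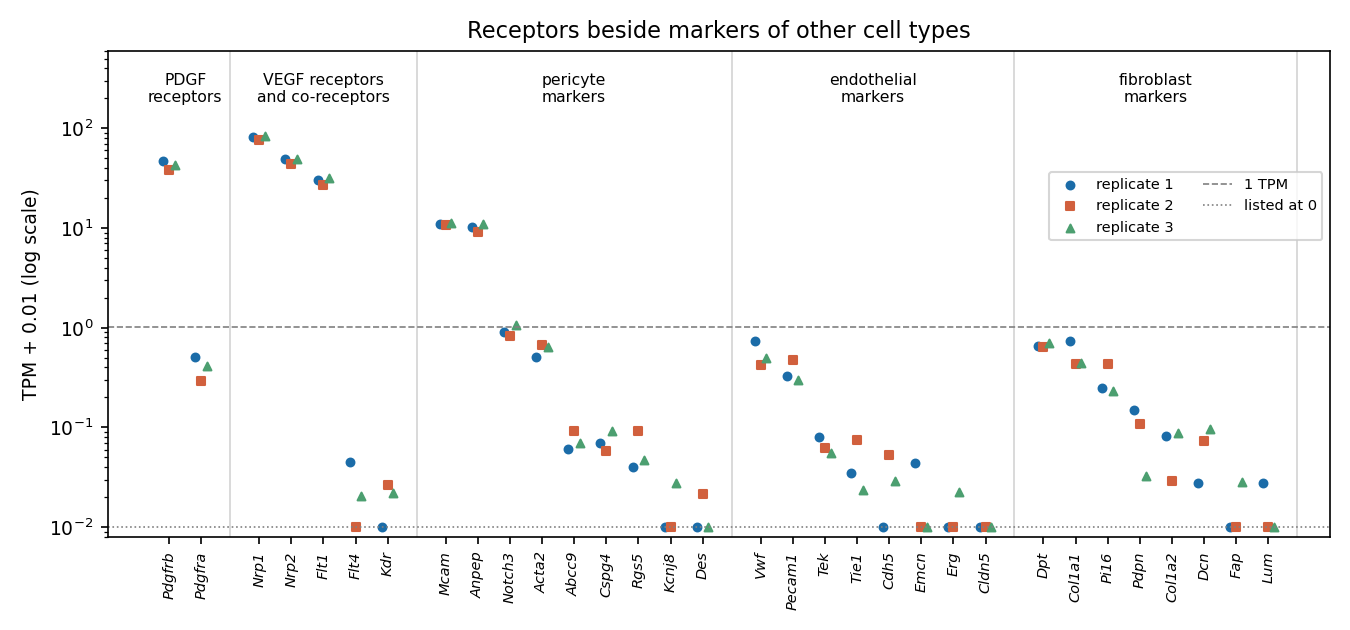
TPM + 0.01 on a log axis in replicates 1, 2 and 3 for the PDGF receptors, the VEGF receptors and co-receptors and the markers of pericytes, endothelial cells and fibroblasts, with lines at 1 TPM (dashed) and at genes listed at 0 (dotted). Pdgfrb, Nrp1, Nrp2 and Flt1 stand above 26 TPM in every library, and among the markers only Mcam and Anpep stand above the detection minimum in every library.

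The receptor exceeded every PDGF chain. Pdgfrb was higher than Pdgfa in 3 of 3 libraries, 1.34 ± 0.23-fold (SD, n = 3), a difference of 0.40 in log2(TPM + 1) (SE 0.12, adjusted p = 0.0016, limma). Without replicate 1, where Pdgfrb was highest and Pdgfa lowest, the difference in log2(TPM + 1) was 0.28 and did not pass (adjusted p = 0.065, limma). Pdgfrb stood 9.77 ± 2.73-fold above Pdgfb and 3.10 ± 0.37-fold above Pdgfd (SD, n = 3), its known ligands. In these cells the PDGFRA ligand genes Pdgfa and Pdgfc were thus present beside a receptor gene below 1 TPM, and transcripts of Pdgfrb were present together with those of Pdgfb and Pdgfd.

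In the order of mean TPM the 10 genes were Vegfa, Vegfb, Pdgfrb, Pdgfa, Pdgfc, Pdgfd, Vegfc, Pdgfb, Vegfd and Pdgfra. No neighbours in that order overlapped in their values over the libraries, and the higher one was higher in 3 of 3 libraries each time. The closest were Pdgfc and Pdgfd, with 15.5 TPM as lowest against 15.4 TPM as highest value. Because the order was set by the means of these same values, this only describes it. The share of all gene pairs without overlap was not computed. Of the 9 neighbouring pairs 8 passed, and of all 45 pairs 44 did (limma, adjusted over all genes set against the same gene). Such calls are common, since 92.8% of all genes tested were called above or below the member they were set against, so the count is no property of these genes. The pair that did not pass was Pdgfc and Pdgfd. Vegfb exceeded Pdgfrb by a log2 ratio of 0.60 ± 0.11 (SE; adjusted p = 2.17e-07, limma), and Pdgfa exceeded Pdgfc by 0.96 ± 0.061 (SE; adjusted p = 1.84e-06, limma). Further down, Pdgfd exceeded Vegfc by 0.50 ± 0.16 (SE; adjusted p = 0.0021, limma) and Vegfc exceeded Pdgfb by 0.93 ± 0.17 (SE; adjusted p = 5.49e-08, limma). At the low end, Pdgfb exceeded Vegfd by 1.16 ± 0.15 (SE, limma adjusted p = 4.00e-14). Vegfd exceeded Pdgfra by 0.83 ± 0.078 (SE, limma adjusted p = 3.82e-08). All these ratios are on the log2(TPM + 1) scale. Sizes at the low end depend on the pseudocount. With 0.1 TPM, Pdgfb over Vegfd was 1.57 and Vegfd over Pdgfra 1.68, and with 5 TPM they were 0.55 and 0.27. Of all genes set against Pdgfra 99.8% were called above it, so that call is no property of Vegfd.

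The deviation of the gene that others are set against enters every ratio of its fit, and for 6 of the 10 genes limma then took the spread as known. Taking it as known makes p-values too small, while the shared deviation can widen an SE and its interval. A p-value can therefore err in either direction, and the SE is not that of the pair alone. With a spread taken from 6007 pairs of different genes, chosen after seeing the data, all 45 pairs passed beside a background of 93%, among them Pdgfc over Pdgfd (adjusted p = 0.034, limma prior). The largest of the other adjusted p-values was then 0.020, for Pdgfrb over Pdgfa. For Vegfc over Pdgfb the SE fell from 0.17 to 0.053, while the adjusted p-value rose from 5.49e-08 (limma) to 6.67e-05 (limma prior).

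**Figure D5:**
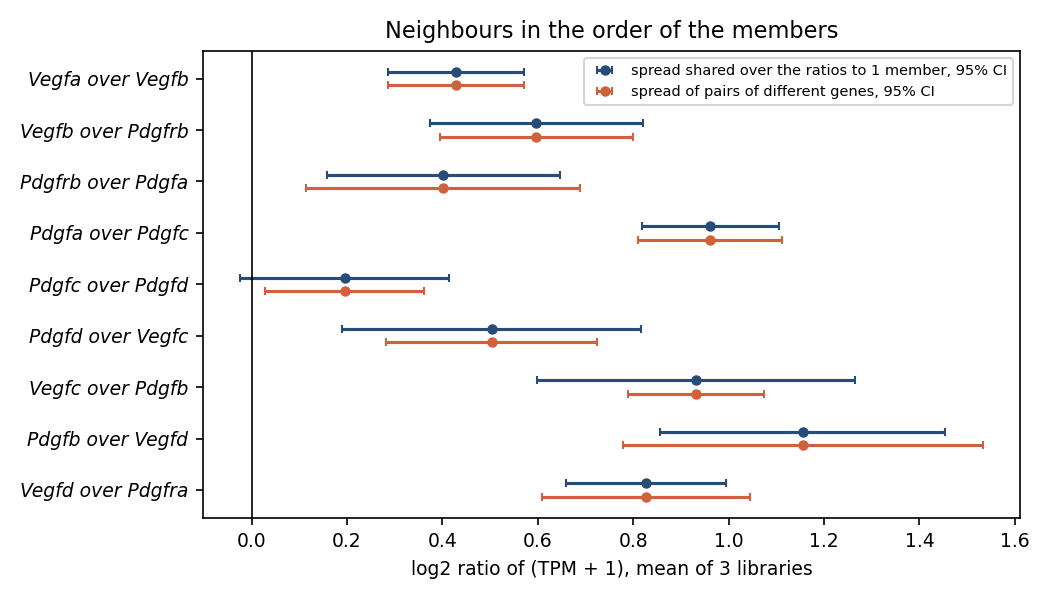
Log2 ratio of (TPM + 1) of each gene over the next lower one (points, mean of 3 libraries) with 95% confidence intervals from the spread shared over all ratios to 1 gene (blue) and from pairs of different genes (orange). The blue interval of Pdgfc over Pdgfd includes 0, from -0.02 to 0.41, and no other interval does.

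Variation between the libraries was widest for the lowest genes. The coefficient of variation ranged from 15.2% to 27.9% for the 4 lowest genes, Vegfc, Pdgfb, Vegfd and Pdgfra, and from 2.67% to 10.6% for the other 6 genes, beside a median of 6.33% over detected symbols. Replicate 2 held the lowest value of 5 of the 9 detected genes, as it did for 61.1% of all detected symbols. Relative to the mean of the other libraries, the log2 value of replicate 2 was -0.25 for Pdgfrb, -0.77 for Vegfd and 0.14 for Pdgfa. Pdgfrb has a longest coding transcript of 5423 bases, Vegfd one of 2049 bases and Pdgfa one of 2060 bases. The part of transcript length or library quality in these differences was not tested.

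The genes of nearest profile, by Euclidean distance of log2(TPM + 1) over the 3 libraries, were Lix1l and Acsl5 for Vegfa, at distances of 0.020 and 0.024. For Pdgfrb they were Rexo4 and Sbno1, at 0.054 and 0.056. With 3 libraries of 1 group this likeness is one of level.

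Gene positions are those of GENCODE M21 on GRCm38. Vegfa lies on chromosome 17 from 46016993 to 46032369 (minus strand) and Vegfb on chromosome 19 from 6982473 to 6987651 (minus). Vegfc lies on chromosome 8 from 54077606 to 54187096 (plus) and Vegfd on chromosome X from 164373378 to 164402650 (plus). Chromosome 5 holds Pdgfa from 138976014 to 138997370 (minus) and Pdgfra from 75152292 to 75198215 (plus). Pdgfb lies on chromosome 15 from 79995874 to 80014977 (minus), Pdgfc on chromosome 3 from 81036416 to 81214040 (plus) and Pdgfd on chromosome 9 from 6168584 to 6378850 (plus). Pdgfrb lies on chromosome 18 from 61045150 to 61085061 (plus). Each of the 10 is a protein-coding gene there, and a value covers the whole gene and not an isoform, exon or UTR. The annotation places antisense genes over exons of Pdgfa (813 shared bases), Pdgfc (147) and Pdgfra (456). Under their names in that annotation these antisense genes are not among the measured symbols. Without a statement on strand, reads of a gene and its antisense partner cannot be told apart.

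The VEGF receptors were present in part. Flt1, the high-affinity receptor of VEGF-A, VEGF-B and placental growth factor, stood at 30.0, 26.7 and 32.0 TPM in replicates 1, 2 and 3 (29.6 ± 2.65 TPM, SD, n = 3). Kdr, the main signalling receptor of endothelial cells, was near 0 throughout: replicate 1 listed 0, replicate 2 0.016 TPM and replicate 3 0.012 TPM. Flt4 was as low, with 0.035 TPM in replicate 1, 0 in replicate 2 and 0.011 TPM in replicate 3. Full-length and soluble forms of Flt1 share this gene value. None of 9 endothelial markers, Kdr among them, was detected, beside 32.6% of all symbols and 55.4% of protein-coding symbols. Cldn5 was listed at 0 in every library and Cdh5 had a mean of 0.021 TPM, and the list summed to between 0.88 and 1.18 TPM. Flt1 was thus the one VEGF receptor gene above 1 TPM, at a level far above the summed endothelial markers.

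The co-receptors Nrp1 and Nrp2, which bind VEGF-A and semaphorins, stood at 80.4 ± 4.09 and 47.5 ± 3.37 TPM (SD, n = 3). Nrp1 lay below Vegfa in 3 of 3 libraries by a log2 ratio of -0.13 (adjusted p = 0.021, limma), which did not pass with the spread of pairs of different genes (adjusted p = 0.056). Nrp2 and Pdgfrb could not be told apart at the threshold, although Nrp2 was higher in 3 of 3 libraries. The difference was 0.15 in log2(TPM + 1), with a 95% interval of -0.08 to 0.37 (adjusted p = 0.21, limma). The spread of pairs of different genes also left it short of the threshold (adjusted p = 0.056, limma prior). Flt1 and Pdgfa could not be told apart either, the difference of Flt1 from Pdgfa being -0.12 with an interval from -0.36 to 0.13 (adjusted p = 0.36, limma). Pgf, the gene of placental growth factor, stood at 10.2, 9.54 and 9.13 TPM (9.62 ± 0.54 TPM, SD, n = 3), a level inside the range of Vegfc.

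Of 12 genes that process these ligands 6 were detected, beside 32.6% of all symbols and 55.4% of protein-coding symbols. Plat, the tissue plasminogen activator that releases PDGF-C from its CUB domains, stood at 70.6 ± 2.66 TPM, and Plau, the urokinase that acts on PDGF-D, at 3.30 ± 0.54 TPM (SD, n = 3). The other known activator gene of PDGF-D, St14 for matriptase, had a mean of 0.088 TPM. Furin, a convertase that cleaves PDGF-A, PDGF-B, VEGF-C and VEGF-D, stood at 40.1 ± 2.54 TPM, beside Pcsk7 with 12.8 ± 1.76 TPM (SD, n = 3). Ctsd, for a cathepsin that can cleave VEGF-C and VEGF-D, stood at 274.8 ± 4.51 TPM (SD, n = 3). Of the extracellular factors that mature VEGF-C, Ccbe1 and Adamts14 had means of 0.046 and 0.022 TPM and Adamts3 was listed at 0 in every library, as was Plg.

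Downstream of the PDGF receptors, 17 of 19 docking proteins and adaptors were detected, beside 32.6% of all symbols and 55.4% of protein-coding symbols, with a list median of 34.3 TPM. Shc1, an adaptor to RAS, stood at 237.4 ± 3.66 TPM, Crk at 112.3 ± 5.15 TPM, the PI3-kinase subunit Pik3r2 at 93.8 ± 4.53 TPM and Grb2 at 74.8 ± 1.20 TPM (SD, n = 3). Grb7 and Grb10 were not detected. All 8 genes of negative receptor control were detected against the same background, with a median of 26.1 TPM, led by the phosphatase gene Ptpn12 with 79.7 ± 3.55 TPM and by Lrp1, an endocytic receptor that binds PDGFRB, with 52.3 ± 11.4 TPM (SD, n = 3). Lrp1 was lowest in replicate 2, at 39.2 TPM, against 57.5 and 60.3 TPM in replicates 1 and 3. Ptpn2 and Ptpn1, phosphatases that act on these receptors, stood at 50.1 ± 0.65 and 27.1 ± 1.78 TPM (SD, n = 3).

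Of 6 extracellular proteins that bind VEGF or PDGF 4 were detected, a share near the 55.4% of protein-coding symbols and above the 32.6% of all symbols. Thbs1, which binds VEGF, stood at 533 ± 25.9 TPM, Sparc, which binds PDGF-B and VEGF, at 379 ± 9.43 TPM, the basement membrane proteoglycan gene Hspg2 at 41.9 ± 7.41 TPM and Ccn2 at 5.05 ± 0.27 TPM (SD, n = 3). Among 10 hypoxia-inducible genes, a class to which Vegfa belongs, 8 were detected against that background, with a list median of 61.9 TPM, led by the glycolytic genes Ldha with 1294 ± 98.8 TPM and Pgk1 with 752 ± 75.1 TPM, with Bnip3 at 144.7 ± 13.5 TPM and Egln3 at 111.5 ± 7.53 TPM (SD, n = 3). Car9 and Adm, at 0.93 and 0.55 TPM, were not detected. All 10 immediate-early genes that growth factors are known to induce were detected, again beside 55.4% of protein-coding symbols, with a list median of 58.2 TPM and with Myc at 207.1 ± 5.10 TPM, Ier3 at 104.8 ± 5.57 TPM, Mcl1 at 95.4 ± 0.53 TPM and Junb at 86.7 ± 6.16 TPM (SD, n = 3). These genes have many inducers and constitutive roles, so the counts are levels and no measure of hypoxia or of receptor signalling.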

How the data were processed

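Polyadenylated RNA of 3 KPC78 libraries was measured. The values are TPM per gene symbol as the authors deposited them, computed with kallisto according to the sheet's name. Versions in the submitters' processing notes were kallisto 0.44.0 and bcl2fastq 2.19, with the build GRCm38.p6. How the values were summed to genes, on which annotation release and with what use of strand is not given in the sources used here. Shared reads are split: kallisto divides those of similar transcripts by a model, and TPM keeps no read depth. A second sheet of 3 columns, whose names match no sample label, was not used.

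Library names tied columns to samples. Levels are means ± SD (n = 3). For each of the 10 genes, log2(TPM + 1) of every gene minus that of the chosen gene was fitted in limma 3.58.1 (R 4.3.3; intercept model, two-sided, genes whose mean reached 1 TPM, Benjamini-Hochberg over all genes fitted, threshold 0.05). Pairs within the 10 genes were read from the fit of the lower gene. Ratios of other genes were read from the fit of the member they were set against, also where that member was the higher gene. The pseudocount understates ratios of low genes. Folds average the TPM ratios of the libraries. The code of the fit was tested on simulated data with independent spreads, which does not cover a deviation shared by all ratios. Promoters came from RefSeq (GRCm38.p6), 1 per gene with the most upstream start, matched for 8 of the 10 genes, and coordinates from GENCODE M21 (GRCm38). Named genes are the 10 genes, the VEGF receptors, Pgf, up to 4 detected genes of highest mean per list and the 2 nearest profiles. Other list genes were named after their values were seen. The genes and lists were chosen with earlier results of these data known. Python 3.11.15 and pandas 2.3.3 were used. Alternatives were other pseudocounts, detection minimums and spreads, no filter, rescaled TPM and leaving out each replicate.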

Additional observations from a re-analysis of the deposited data

How the results depend on the processing

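The number of detected genes among the 10 was 9 at minimums of 0.5 and 1 TPM, by the mean and without any 1 replicate, and 7 at 5 TPM, where Pdgfb and Vegfd dropped out. Of 45 pairs 44 passed with a pseudocount of 0.1 TPM or without a filter, and 45 with a pseudocount of 5 TPM or a spread that follows the level. Leaving out 1 replicate gave 43 to 45, the lowest without replicate 1, where Pdgfrb over Pdgfa was lost. Fits set against the higher gene gave 36 pairs, all of which passed, since Pdgfra was below the filter. Pdgfc over Pdgfd passed under 5 alternatives, 1 of them chosen after seeing the data, with adjusted p-values from 0.017 without replicate 3 to 0.038 with a pseudocount of 5 TPM (limma). It did not pass under the others, where the adjusted p-value reached 0.34 without replicate 2. No ratio of neighbours reversed under the alternatives run. The sum of the 10 genes was 273.9 TPM, and 374 TPM after rescaling without mitochondrial and ribosomal protein genes, which raised all 10 levels alike by construction and left the family shares as they were. Among markers, a minimum of 0.5 TPM gave 3 detected pericyte genes, 5 ductal epithelial genes, 1 fibroblast gene and 2 leukocyte and platelet genes, and a minimum of 5 TPM gave none of the last 2 kinds. No paired analysis was possible because all libraries belong to 1 group. The unknown read depth limits what can be said of genes near 0.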

Other observations

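Pdgfrl, which encodes a secreted protein related to the ligand-binding part of the PDGF receptors, was chosen after its values were seen. It stood at 7.12, 8.98 and 9.33 TPM in replicates 1, 2 and 3 (8.48 ± 1.18 TPM, SD, n = 3), all above the level of Pdgfra.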
